A study of Gasterosteus aculeatus with 62 samples.

Results

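The comparison described here is that of the telencephalon of tradeoff males with the telencephalon of predator males in threespined stickleback (Gasterosteus aculeatus). It asks what a courtship opportunity does to gene expression in this part of the forebrain when a predation risk is present too. Its members are the 16 libraries that the labels give as telencephalon and as tradeoff (8 males) or predator (8 males), of 62 libraries in all. Tradeoff males met a live gravid female together with a model trout. Predator males met a model trout with odour cues in a cage and no female. Odour is mentioned in the labels only with the predator treatment. If tradeoff males had none, the presence of the female and the absence of odour cannot be told apart. All males of both groups had built a nest before the trial and were killed 1 hour after it. No genotype, age or population is given in the labels. Each male gave 1 telencephalon and 1 diencephalon library, and no animals were pooled. The same males' diencephalon (8 and 8 libraries) and the telencephalon of courtship males (female alone, 8) and control males (empty cages, 7) are used only to place the comparison.

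The telencephalon is the front part of the forebrain. In fishes it holds the pallium and subpallium, including areas regarded as counterparts of the hippocampus, amygdala, septum and striatum, and it takes part in learning about danger, in social recognition and in the choice between courting and hiding. The diencephalon behind it holds the thalamus and hypothalamus, with the cells that control the pituitary. In this species the male alone builds the nest and guards the eggs, and courting near a trout sets mating against safety. Soon after a trial, brain tissue can hold both an early transcriptional response and the standing makeup of the tissue. Because each library is bulk tissue, fewer cells of a type and less RNA per cell cannot be told apart in any result below.

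The 8 tradeoff libraries held 30.2 to 49.7 M counts in gene models (mean 36.7, SD 7.10) and the 8 predator libraries 26.9 to 42.0 M (mean 35.2, SD 5.12). Between 5.41% and 14.4% of the tallied reads per library aligned to several places and entered no gene's count, so genes with near-identical copies are uncertain. The files list 22295 gene models by identifier, of which 0 could be matched to a gene name. Genes are therefore given by identifier, without symbol, position or function. The gene lists drawn up by symbol (immediate early genes, steroid and stress signalling, neuropeptides, monoamines, and markers of telencephalon, diencephalon, glia, blood, meninges and pituitary) could not be read out. The labelled tissue was checked by expression level alone, with a regional index.

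The regional index is a difference of averages, namely the mean log2 level over 500 telencephalon-high genes less the mean over 500 diencephalon-high genes. Both lists were chosen in the 15 control and courtship males, which take no part in the comparison. Only genes with a mean log2 level above 3 in those males could enter a list. A log2 level is the log2 of CPM, a gene's count scaled to its library's total, with a prior count of 2. The telencephalon-high genes were 0.93 to 6.51 log2 units higher in telencephalon than in diencephalon in those males, and the diencephalon-high genes 0.95 to 7.55 units lower. All 31 diencephalon libraries lay between -1.24 and -0.90. Of the 16 libraries compared here, 15 lay at 1.41 or above.

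The library labelled as the telencephalon of predator male 42 went against its label. Its regional index was -1.98, lower than that of every diencephalon library. Its median distance from the mean of the other predator libraries was 0.57 log2 units per gene, against 0.13 to 0.16 for the other 15 libraries and their own groups. Telencephalon-high genes averaged 3.74 log2-CPM in it, against 6.24 to 6.33 in the other predator libraries. Counts over all genes and the estimates of named genes are therefore given with and without the library labelled male 42, which leaves 8 tradeoff and 7 predator libraries in the second case. The 183 genes described below were called with it left out.

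**Figure D1:**
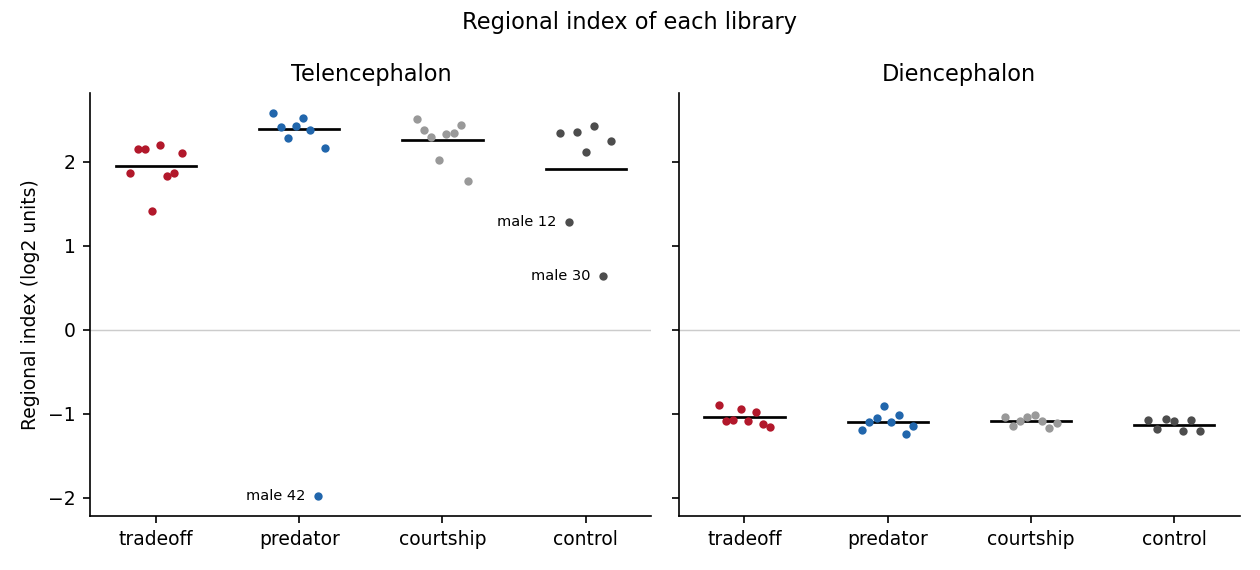
Regional index (log2 units) of every telencephalon library (left) and diencephalon library (right), by treatment; each point is 1 library and each black line a group mean, drawn without male 42. The 8 tradeoff telencephalon libraries lie between 1.41 and 2.20 and the predator libraries other than male 42 between 2.16 and 2.58, while male 42 lies at -1.98 and the diencephalon libraries between -1.24 and -0.90.

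The balance of telencephalon-high and diencephalon-high transcripts differed between tradeoff and predator males once male 42 was set aside. The lowest, median and highest index were 1.41, 1.98 and 2.20 in the 8 tradeoff libraries, against 2.16, 2.41 and 2.58 in the 7 predator libraries. The groups overlapped only narrowly, with 7 of the 8 tradeoff libraries below the lowest predator library and 6 of the 7 predator libraries above the highest tradeoff library. The mean index was 1.95 (SD 0.26) in tradeoff males and 2.39 (SD 0.14) in predator males, a difference of -0.45 (two-sided exact permutation test over 6435 arrangements, p = 0.000777). That difference was 12.8% of the gap of 3.48 between predator telencephalon and predator diencephalon. With male 42 included, the difference was 0.10 (exact permutation p = 1.00, 12870 arrangements), so that 1 library decided its sign.

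Both lists contributed to the difference in the index, the diencephalon-high list more. Telencephalon-high genes averaged 6.16 log2-CPM (SD 0.049, n = 8) in tradeoff males and 6.29 log2-CPM (SD 0.035, n = 7) in predator males. Diencephalon-high genes averaged 4.22 log2-CPM (SD 0.23) in tradeoff males and 3.90 log2-CPM (SD 0.12) in predator males. In the diencephalon of the same males the mean index was -1.04 (SD 0.092, n = 8) in the tradeoff group and -1.09 (SD 0.10, n = 8) in the predator group (difference 0.05, exact permutation p = 0.321). Courtship telencephalon libraries lay between 1.76 and 2.51 (mean 2.26, SD 0.25, n = 8). Control libraries lay between 2.11 and 2.43 in 5 males, with the other two at 1.28 (male 12) and 0.64 (male 30). What set the index of a library, including where the tissue was cut, was not tested.

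No gene passed the adjusted threshold in the planned test of tradeoff against predator. The test was edgeR's quasi-likelihood test with the spread taken from all 4 treatment groups and Benjamini-Hochberg adjustment at 0.05. With all 31 telencephalon libraries, 0 of 18714 genes passed (0%, smallest adjusted p 0.432), and 1001 (5.35%) had an unadjusted p under 0.05, 487 of them higher (2.6%) and 514 lower (2.75%) in tradeoff males. DESeq2 called 2 genes on the same libraries (0.0107%) and voom with sample quality weights called 0. Without male 42, 0 of 18687 genes passed (0%, smallest adjusted p 0.163), and 2261 (12.1%) had an unadjusted p under 0.05, with 1181 higher (6.32%) and 1080 lower (5.78%). DESeq2 then called 27 genes (0.144%), 13 higher and 14 lower, and voom called 2, both lower. Of the genes under an unadjusted p of 0.05, 550 were shared between both settings, which is 54.9% of the 1001 and 24.3% of the 2261.

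The precision bounds what the comparison could have missed. The median standard error of a gene's log2 fold change was 0.12 with all libraries and 0.10 without male 42. For 85.6% of genes tested without male 42, changes of 2-fold or more in either direction fell outside the 95% confidence interval. Among the 2261 genes, 167 were estimated over 2-fold higher in tradeoff males and 19 over 2-fold lower. The balance turned with male 42, since among the 1001 genes with all libraries 79 were over 2-fold higher and 100 over 2-fold lower. With male 42 left out, the spread per gene was alike in both groups, with a median SD of 0.18 log2 units in tradeoff and in predator males. The SD of the regional index was 0.26 in tradeoff males and 0.14 in those predator males.

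The call depended on which libraries supplied the spread. Fitted on the 15 tradeoff and predator libraries alone, without male 42, edgeR called 183 of 18119 genes (1.01%), and 2883 (15.9%) had an unadjusted p under 0.05. Of these, 27 were higher in tradeoff males (0.149%) and 156 were lower (0.861%). All 183 had an unadjusted p under 0.05 in the fit with the courtship and control libraries too. That larger fit holds the same 15 libraries in which the genes were called, so it gives no independent support to the calls. Control males 12 and 30, with their low regional index, are in that larger fit. Leaving them out of it as well, a setting added once the data had been seen, gave 231 genes, 40 higher and 191 lower. With male 42 kept, the tradeoff and predator libraries alone gave 0 called genes and 740 with an unadjusted p under 0.05.

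The number of called genes in the fit of 15 libraries changed with the loss of 1 male. Leaving out tradeoff male 1, 6, 13, 25, 28 or 39 gave 41, 88, 94, 92, 118 and 96 called genes, in that order. Leaving out predator male 17, 33, 34 or 37 gave 48, 57, 20 and 82. The other 5 omissions gave 135 to 256. All 183 genes kept their sign in each of the 15 omissions, which says little of genes chosen for their difference in these libraries. With male 42 included 181 kept it, and 24 had an unadjusted p under 0.05.

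**Figure D2:**
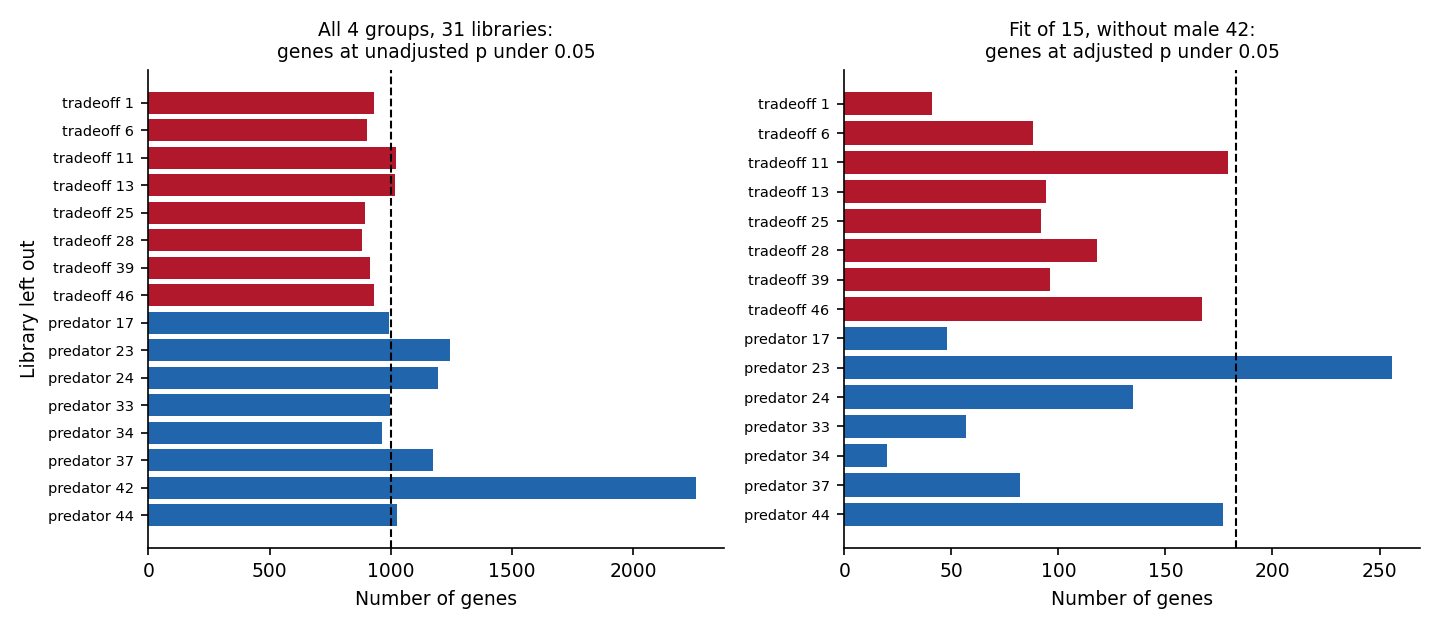
Number of genes after leaving out 1 library at a time, with tradeoff libraries (red) above predator libraries (blue) and the dashed line at the value with none left out. On the left, genes at an unadjusted p under 0.05 among all 4 groups go up to 2261 without male 42, against 1001 with all libraries; on the right, genes called among the 15 tradeoff and predator libraries range from 20 to 256, against 183.

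The 156 lower genes and the 27 higher genes were of different kinds. The lower genes were abundant, with a median of 143 CPM, and their changes were small, with a median log2 fold change of -0.24 and a range of -0.53 to -0.14. None of them exceeded 2-fold. The higher genes had a median of 17.2 CPM, a median log2 fold change of 0.54 and a range of 0.26 to 1.78, and 6 of them exceeded 2-fold. Over all 18119 genes the median level was 18.0 CPM and the median log2 fold change 0.00. Every tradeoff library lay below every one of the 7 predator libraries for 71 of the 156 lower genes, and above for 8 of the 27 higher genes. Among all 18687 genes tested without male 42, such a separation was seen for 86 lower genes (0.46%) and 21 higher genes (0.112%). That separation and the call use the same values, so it gives no independent support to the calls.

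Genes of the lower group were mostly those that the telencephalon holds at a higher level than the diencephalon. Of the 156, 118 were more than 0.5 log2 units higher in telencephalon in control and courtship males, and none was more than 0.5 units lower. Of the 27 higher genes, 10 were more than 0.5 units lower in telencephalon and none more than 0.5 units higher. Of the genes tested, 11.0% had such a telencephalon bias and 15.5% such a diencephalon bias. Over the 183 called genes together the shares were 64.5% and 5.46%. The pooled shares hide that every called gene with such a telencephalon bias was lower and every one with such a diencephalon bias higher. The telencephalon-high list held 63 of the lower genes and the diencephalon-high list 3 of the higher ones, and each list makes up 2.76% of the genes tested. That share is not matched for level, since only genes with a mean log2 level above 3 could enter the lists. These counts and the regional index both rest on regional bias in the same control and courtship males. The index differed between the groups, as given above, and how much of these counts goes with it was not tested. Fits with the index as a covariate are given as a description. With the regional index as a covariate, the fit of 15 libraries called 0 of 18119 genes, with 1137 at an unadjusted p under 0.05. Of the 183, 158 remained under that p. The median log2 fold change was then 0.39 for the 27 higher genes, against 0.54 without the covariate, and -0.21 for the 156 lower genes, against -0.24. With the courtship and control libraries in the fit as well, the covariate left 76 of the 183 under an unadjusted p of 0.05, 22 higher and 54 lower. The 183 were chosen for their difference in the same libraries, and 63 lower and 3 higher ones help define the index. Neither the 158 nor the 76 therefore gives independent support to the calls. The covariate also widened the median standard error over all genes to 0.13, against 0.091 without it.

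Among the lower genes of this fit, ENSGACG00000012157 had the smallest p. It is on the telencephalon-high list, at a mean of 924 CPM in telencephalon and 313 CPM in diencephalon of control and courtship males. Its lowest, median and highest levels were 793, 815 and 883 CPM in tradeoff telencephalon, against 953, 1000.4 and 1080 CPM in the 7 predator libraries. The groups did not overlap. The log2 fold change was -0.29 (SE 0.036, edgeR adjusted p = 0.00626 in the fit of 15, and 0.299 with the spread of all 4 groups). Male 42 held 38.2 CPM, below all diencephalon libraries of both groups, which held 245 to 446 CPM. With male 42 included the estimate was -0.10 (SE 0.30), and the index covariate in the fit of 15 gave -0.25 (SE 0.054).

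ENSGACG00000006108 followed the same pattern at a lower level. It held 164, 177 and 196 CPM at lowest, median and highest in tradeoff males, against 206, 211 and 220 CPM in the 7 predator males, again with no overlap. Its log2 fold change was -0.24 (SE 0.036, edgeR adjusted p = 0.0149 in the fit of 15 and 0.228 with all 4 groups). Male 42 was at 42.1 CPM, and with it the estimate was -0.09 (SE 0.17). The index covariate in the fit of 15 gave -0.25 (SE 0.056). In control and courtship males the gene was 0.89 log2 units higher in telencephalon than in diencephalon.

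The higher genes of smallest p were scarce or moderate in level. ENSGACG00000020642 held 2.15, 3.01 and 6.44 CPM at lowest, median and highest in tradeoff males, against 0.66, 1.14 and 1.47 CPM in the 7 predator males. All 8 tradeoff libraries were above all 7 predator libraries. Its log2 fold change was 1.78 (SE 0.28, edgeR adjusted p = 0.0149 in the fit of 15, and 0.238 with all 4 groups). Male 42 held 6.20 CPM, within the tradeoff range, and with it the estimate was 1.13 (SE 0.51). With the regional index as a covariate in the fit of 15 it was 0.88 (SE 0.30). Control libraries ran from 0.75 to 9.30 CPM. The gene was at -0.74 log2 units for telencephalon minus diencephalon in control and courtship males.

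ENSGACG00000001830 held 39.3, 51.9 and 69.5 CPM at lowest, median and highest in tradeoff males, against 29.4, 33.1 and 40.3 CPM in the 7 predator males. Of the 8 tradeoff libraries, 7 lay above all 7 predator libraries. The log2 fold change was 0.62 (SE 0.11, edgeR adjusted p = 0.0233 in the fit of 15 and 0.228 with all 4 groups). Male 42 held 148 CPM and moved the estimate to 0.12 (SE 0.26), and the index covariate in the fit of 15 gave 0.18 (SE 0.086). Diencephalon libraries of both groups held 62.5 to 95.4 CPM. Both pairs of genes were named after their values in this fit were seen.

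The planned rule named the genes of smallest p in the fits with all 4 groups. Without male 42 these were ENSGACG00000017486 and ENSGACG00000000350, estimated higher, and ENSGACG00000007914 and ENSGACG00000015377, estimated lower. None passed with all 4 groups, with edgeR adjusted p-values of 0.163 to 0.228, and all 4 passed in the fit of 15.

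ENSGACG00000017486 held 2.99, 3.69 and 4.37 CPM at lowest, median and highest in tradeoff males, against 1.91, 2.24 and 2.74 CPM in the 7 predator males, without overlap (log2 fold change 0.67, SE 0.15). Male 42 held 9.72 CPM and reduced the estimate to 0.19 when it was included, and the index covariate in the fit of 15 gave 0.43 (SE 0.18). ENSGACG00000000350 held 30.6, 47.5 and 58.8 CPM in tradeoff males, against 14.1, 19.7 and 40.8 CPM in the 7 predator males (log2 fold change 0.98, SE 0.22). For this gene 6 of the 8 tradeoff libraries were above all 7 predator libraries. With male 42, at 140.4 CPM, the estimate was 0.28 (SE 0.34), and the index covariate in the fit of 15 gave 1.28 (SE 0.32). Its estimate in the diencephalon of the same treatments was 0.53 (SE 0.22, unadjusted p = 0.0244, edgeR adjusted p = 0.986).

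The lower pair were abundant genes with little spread. ENSGACG00000007914 held 214, 232 and 266 CPM at lowest, median and highest in tradeoff males, against 266, 284 and 297 CPM in the 7 predator males (log2 fold change -0.25, SE 0.046). ENSGACG00000015377 held 78.0, 88.4 and 97.1 CPM in tradeoff males, against 93.7, 105 and 113 CPM in the 7 predator males (log2 fold change -0.26, SE 0.051). For each of them 7 of the 8 tradeoff libraries were below all 7 predator libraries. Neither gene was on a list of the regional index, and telencephalon minus diencephalon in control and courtship males was -0.08 log2 units for ENSGACG00000007914 and 0.09 for ENSGACG00000015377. Male 42 was lower than all tradeoff libraries for both, at 157 and 62.3 CPM. With it the estimates were -0.17 (SE 0.082) for ENSGACG00000007914 and -0.18 (SE 0.079) for ENSGACG00000015377. The index covariate in the fit of 15 gave -0.33 (SE 0.064) and -0.30 (SE 0.074), in that order.

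**Figure D3:**
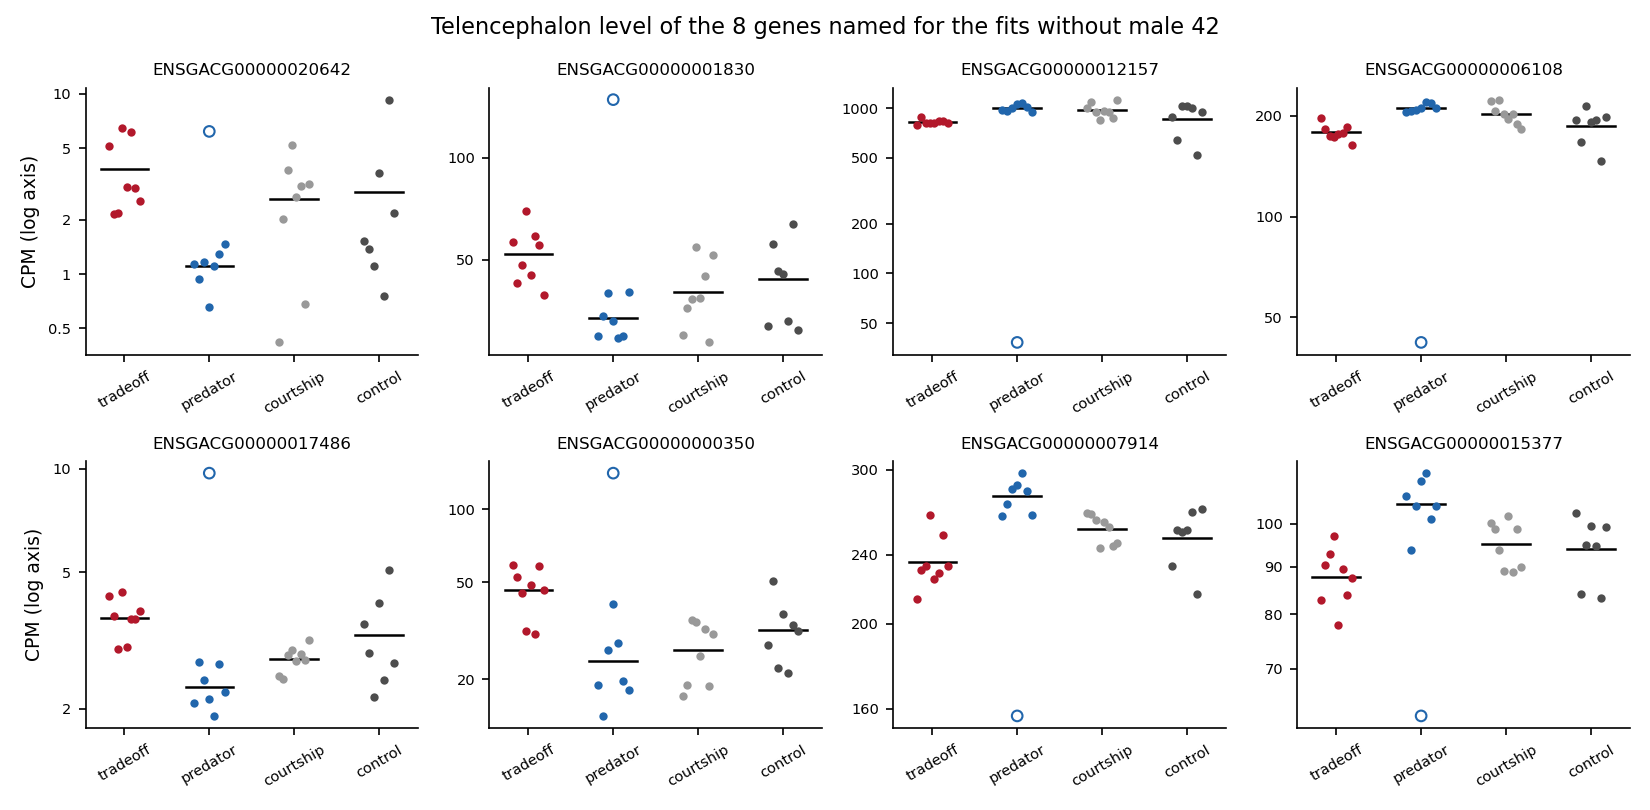
Telencephalon level (CPM, log axis) of the 8 genes named for the fits without male 42, the 4 of the fit of 15 libraries in the top row and the 4 of the fit with all groups in the bottom row; points are libraries, lines are group means without male 42, and the open circle is male 42. In the top row ENSGACG00000012157 and ENSGACG00000006108 are lower in all 8 tradeoff libraries than in the 7 predator libraries, and male 42 lies far below both groups at 38.2 and 42.1 CPM.

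Of the genes that the rule named with all libraries in the fit, only ENSGACG00000017096 changed greatly in its estimate once male 42 was removed. ENSGACG00000002393 held 7.01, 13.7 and 19.5 CPM at lowest, median and highest in tradeoff males, against 1.00, 4.68 and 6.57 CPM in all 8 predator males. The groups did not overlap, male 42 (5.41 CPM) included. Its log2 fold change was 1.69 with male 42 (SE 0.38, edgeR adjusted p = 0.506) and 1.74 without (SE 0.41, adjusted p = 0.228), and it passed in the fit of 15 (adjusted p = 0.0277). With the index covariate in that fit the estimate was 0.81 (SE 0.35). The diencephalon estimate was 0.21 (SE 0.26). ENSGACG00000001668 also separated all 8 tradeoff libraries (74.98 to 86.0 CPM) from all 8 predator libraries (87.4 to 106 CPM), and its log2 fold change was -0.24 (SE 0.050, edgeR adjusted p = 0.432 with all libraries and 0.0225 in the fit of 15). With the index covariate in the fit of 15 its estimate was -0.28 (SE 0.069). ENSGACG00000001668 was among 5 genes (0.0268%) whose groups did not overlap with every library included, 3 higher (0.0161%) and 2 lower (0.0107%).

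For ENSGACG00000008526, 7 of 8 tradeoff libraries were above the 7 predator libraries other than male 42, with a log2 fold change of 0.61 with that library (SE 0.14) and 0.54 without it (SE 0.13). The index covariate in the fit of 15 gave 0.76 (SE 0.17) for ENSGACG00000008526. ENSGACG00000017096 owed its place to 1 library. Male 42 held 274 CPM, against 0.12 to 0.91 CPM in tradeoff males and 0.052 to 0.66 CPM in the other predator males. Its log2 fold change was -6.73 with male 42 (SE 1.41, edgeR adjusted p = 0.432) and 0.15 without (SE 0.43). Telencephalon minus diencephalon in control and courtship males was -2.61 log2 units for this gene, and predator diencephalon libraries held 0.85 to 37.9 CPM.

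Across genes, the median difference between tradeoff and predator males followed the regional bias of the gene, in a direction that changed with male 42. Without that library, the 500 telencephalon-high genes had a median log2 fold change of -0.15, with 6 higher and 165 lower at an unadjusted p under 0.05. The 500 diencephalon-high genes had a median of 0.25, with 155 higher and 5 lower. Over all 18687 genes the median was 0.01, with 6.32% higher and 5.78% lower. With male 42 included, the medians were -0.01 for the telencephalon-high genes (3 higher, 3 lower) and -0.10 for the diencephalon-high genes (10 higher, 53 lower), against 2.6% higher and 2.75% lower over all genes. In the diencephalon of the same treatments they were 0.05 and -0.01. With male 42 left out and the index added as a covariate, they were -0.01 (17 higher, 12 lower) and 0.01 (10 higher, 34 lower). Over all 18687 genes that fit had 422 higher and 410 lower. In the fit of 15 with the covariate the medians of the lists were -0.09 (16 higher, 96 lower) and -0.10 (8 higher, 24 lower). Over all 18119 genes of this fit, 480 were higher and 657 lower. These genes define the index, so their medians restate its difference between the groups. With or without the covariate they are no independent result.

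The medians changed sign along the scale of regional bias. As for the lists of the index, only genes with a mean log2 level above 3 in control and courtship males were grouped. Genes more than 1 unit from equality overlap the lists that define the index, so their medians restate its difference and are no separate result. Without male 42, the 30 genes over 3 log2 units higher in diencephalon had a median log2 fold change of 0.61, and the 81 genes at 2 to 3 units had a median of 0.50. The 9713 genes within 0.5 units of equality had a median of -0.01. The 341 genes that were 1 to 2 units higher in telencephalon had a median of -0.15, and the 35 genes over 3 units higher had a median of -0.14. With male 42 the first of these medians was -0.68, the opposite sign.

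**Figure D4:**
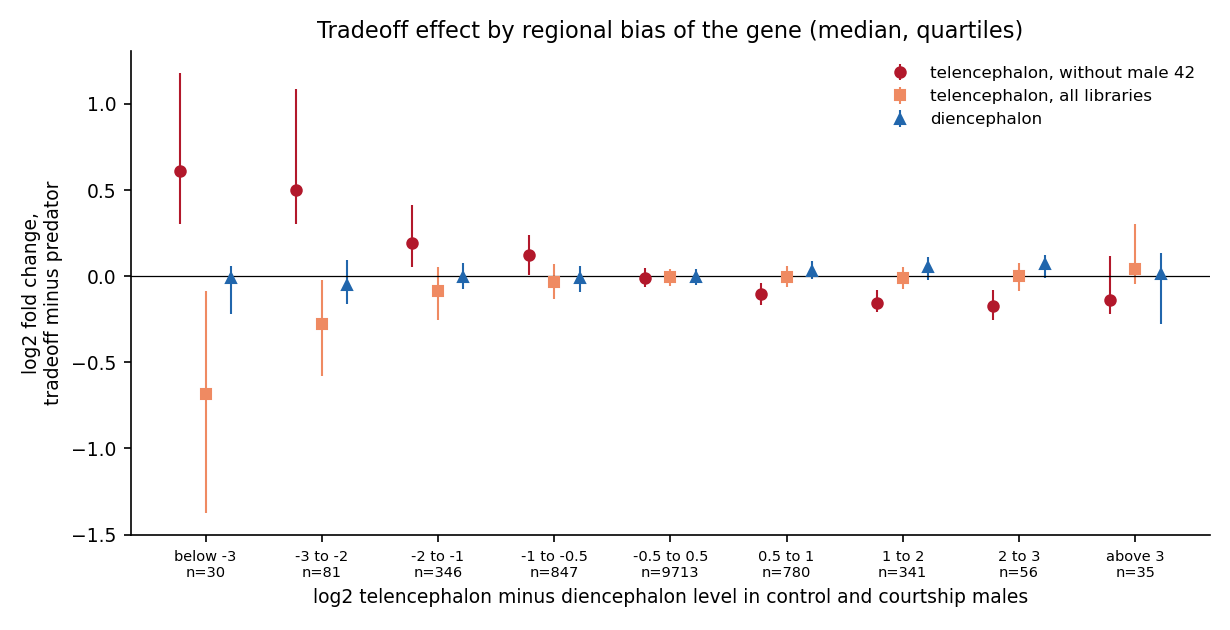
Median log2 fold change of tradeoff against predator (vertical axis, bars from the lower to the upper quartile of genes) for genes grouped by their log2 difference between telencephalon and diencephalon in control and courtship males (horizontal axis, with the number of genes). Without male 42 (circles) the medians run from 0.61 in the most diencephalon-biased genes to -0.14 in the most telencephalon-biased ones, and with male 42 (squares) the first is -0.68. In the diencephalon (triangles) the medians lie between -0.05 and 0.07. Only genes with a mean log2 level above 3 in control and courtship males are shown.

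Genes were also counted by class of identifier and by level, against 6.32% higher and 5.78% lower at an unadjusted p under 0.05 over all genes without male 42, and 2.6% and 2.75% with it. Of the 657 models named for the Y chromosome, 459 passed the filter without male 42, with a median log2 fold change of 0.01 and 24 higher and 19 lower. With male 42, 461 passed, with 14 higher and 5 lower. Of the 833 other MAKER models, 301 passed, with 13 higher and 17 lower without male 42 and 5 higher and 7 lower with it. In the fit of 15 libraries, 2 of the 444 tested models named for the Y chromosome and 1 of the 276 other MAKER models were called. Over all genes of that fit the share was 1.01%. The 100 most abundant telencephalon genes leaned to lower estimates, with a median of -0.07, 2 higher and 27 lower without male 42, and a median of -0.06, 0 higher and 11 lower with it. Without male 42 and with the index covariate, the median was -0.02 in the fit with all 4 groups. There 0 were higher and 3 lower, against 422 and 410 of all 18687 genes. In the fit of 15 with the covariate it was -0.06. There 0 were higher and 14 lower, against 480 and 657 of all 18119 genes. Of these 100 genes, 9 were called in the fit of 15, all lower, against 0.861% of all genes in that direction.

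In the diencephalon the same contrast called 0 of 18942 genes by edgeR (0%), with 888 (4.69%) at an unadjusted p under 0.05, and DESeq2 called 3. The 183 genes of the telencephalon fit of 15 had a median log2 fold change of 0.04 there. Of them, 5 had an unadjusted p under 0.05 in the same direction and 5 in the opposite direction, and 74 shared the sign. The 2 directions differed. Of the 27 higher genes, 21 shared the sign, with 4 under that p in the same direction and 1 in the opposite direction. Of the 156 lower genes, 53 shared the sign, with 1 and 4 in that order. Of 2254 genes under that p in the telencephalon fit of 4 groups without male 42 and tested here, 1220 shared the sign. The difference between the regions was tested directly. Without the telencephalon library of male 42 it called 0 of 19294 genes (0%), with 1699 (8.81%) at an unadjusted p under 0.05, and DESeq2 called 4. The diencephalon library of this male stayed in. Both libraries of a number come from the same animal. With the male as a block, the test called 6 of the same 19294 genes, 2 higher and 4 lower, and 3232 of them had an unadjusted p under 0.05. With male 42 kept, 0 of 19321 genes passed with or without the block, with 829 and 481 (2.49% without the block) at an unadjusted p under 0.05.

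Of 5 of the genes with a difference between the regions under the block, ENSGACG00000017486 and ENSGACG00000015377 had passed in the telencephalon alone in the fit of 15, and the other three passed in neither region alone. ENSGACG00000013002 held 1812, 2884 and 3174 CPM at lowest, median and highest in tradeoff telencephalon, against 1732, 1961 and 3150 CPM in the 7 predator libraries. In the diencephalon it held 1146, 1520.5 and 1809 CPM in tradeoff males, against 1193, 1971 and 2343 CPM in predator males. The difference of the 2 contrasts was 0.67 (SE 0.12, edgeR adjusted p = 0.0402), while the telencephalon estimate was 0.35 without male 42 (SE 0.15) and 0.17 with it (SE 0.17), and the diencephalon estimate was -0.30 (SE 0.16). ENSGACG00000017486 had a difference of 0.92 (SE 0.18) and ENSGACG00000015377 one of -0.34 (SE 0.066), both at the same adjusted p. Their diencephalon estimates were -0.23 (SE 0.12) and 0.08 (SE 0.052), in that order, smaller than those in the telencephalon given above. ENSGACG00000008145 (-0.22, SE 0.042) and ENSGACG00000012959 (-0.24, SE 0.046) also passed, and both were estimated lower in tradeoff telencephalon and higher in tradeoff diencephalon. These were named after their values were seen.

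The rule for the difference between the regions without the block also named ENSGACG00000018848 and ENSGACG00000020368. ENSGACG00000018848 rested on a few libraries, with tradeoff male 39 at 49.8 CPM in the telencephalon against 0.63 to 1.43 CPM in the other 7 tradeoff males and 0.17 to 1.396 CPM in the 8 predator males. In the diencephalon, predator males 23 and 34 held 14.4 and 4.67 CPM, against 0.82 to 1.28 CPM in the other predator males. Its estimate was 3.05 (SE 1.03) in the telencephalon without male 42 and -2.02 (SE 0.54) in the diencephalon. The difference was 5.06 (SE 1.14, edgeR adjusted p = 0.241). ENSGACG00000020368 held 235, 262 and 271 CPM at lowest, median and highest in tradeoff telencephalon, against 289, 314 and 332 CPM in the 7 predator libraries, without overlap. It passed in the fit of 15 (log2 fold change -0.26, SE 0.042, edgeR adjusted p = 0.0149). With male 42, at 104 CPM, the estimate was -0.14 (SE 0.13), and the index covariate in the fit of 15 gave -0.21 (SE 0.064). In the diencephalon the estimate was 0.12 (SE 0.068).

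Whether the female had the same effect without the trout was tested as the difference between tradeoff minus predator and courtship minus control. With all libraries, edgeR called 0 of 18714 genes (0%), with 911 (4.87%) at an unadjusted p under 0.05, and DESeq2 called 0. Without male 42, edgeR called 0 of 18687 genes (0%), with 2862 (15.3%) at an unadjusted p under 0.05, and DESeq2 called 115, 7 higher and 108 lower. Leaving out control males 12 and 30 as well, a setting added once the data had been seen, gave 1299 genes with an unadjusted p under 0.05, and 0 passed. That setting has 5 control libraries in place of 7, and why the count was smaller was not tested. Of the 2261 genes under an unadjusted p of 0.05 for tradeoff against predator, 79.2% had the opposite sign for courtship against control, against 63.8% of all genes tested. Without control males 12 and 30 the shares were 40.5% of the 2261 and 46.5% of all genes.

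Courtship and control levels of the 183 genes of the fit of 15 are given as a description, since genes chosen for the distance between tradeoff and predator males leave other groups more room between them. The courtship mean was between the tradeoff and predator means for 173 of the 183 genes, against 44.2% of all genes in that fit, and closer to the predator mean for 148, against 58.1%. The control mean was closer to the tradeoff mean for 163 genes, against 60.3% of all genes. Without control males 12 and 30 it was closer to the predator mean for 160, against 59.4%.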

How the data were processed

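RNA sequencing was read from 1 table per library of raw counts per gene model, deposited by the authors. Per the labels' protocols, polyadenylated RNA went into a stranded kit and all libraries ran in 1 lane. STAR and HTSeq were used, per the submitters' processing notes. With versions, build and strand setting not given in the sources used here, overlapping antisense genes may share reads. In the 16 libraries, tally lines without a gene were dropped, among them reads outside gene models (40.5% to 48.2% of tallied reads).

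Genes passed filterByExpr (minimum count 10, minimum total 15) and were scaled by TMM and tested with robust quasi-likelihood fits (edgeR 4.0.16, R 4.3.3), adjusted by Benjamini-Hochberg at 0.05. DESeq2 1.42.0 and voom (limma 3.58.1) were alternatives. CPM used TMM over all 62 libraries. The steps were tested on simulated data. A standard error is the absolute log2 fold change over the root of the F statistic. The members, lists and alternatives were chosen with earlier results of these data known. Genes were named by a rule, the pair of smallest p in each direction per test. None of 22295 identifiers matched a table of 52177 entries (assembly fGasAcu3.hap1.1).

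No 2 of the 16 libraries agreed within sampling noise (120 pairs). The labels tie both regions to 1 male by number. Deviations from group means correlated at 0.22 to 0.58 within the 30 males other than male 42, against -0.01 between males. The labels name separate males and give no batch.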

Additional observations from a re-analysis of the deposited data

Results flagged for a closer look

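Libraries were set against the rest of their group of 8 for the regional index, the depth and the 17 named genes, 38 checks in all. The checks share libraries and are not independent. Most of the genes were named in fits without male 42, and ENSGACG00000017096 because of that library. A chance rate of 1 in 20 therefore does not apply. A library was picked where the gap to its nearest neighbour took up more of the group's range than Dixon's 95% critical value. The library labelled predator male 42 accounted for 13 of the 16 hits, a number that the choice of genes favoured. Its regional index of -1.98 stood apart from the next lowest, 2.16. It was the highest predator library for ENSGACG00000017096 (274 CPM), ENSGACG00000017486 (9.72 CPM), ENSGACG00000000350 (140.4 CPM), ENSGACG00000020642 (6.20 CPM) and ENSGACG00000001830 (148 CPM). It was the lowest for ENSGACG00000007914 (157 CPM), ENSGACG00000015377 (62.3 CPM), ENSGACG00000020368 (104 CPM), ENSGACG00000012157 (38.2 CPM), ENSGACG00000006108 (42.1 CPM), ENSGACG00000008145 (76.9 CPM) and ENSGACG00000012959 (33.1 CPM).

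In the tradeoff group, male 13 had a regional index of 1.41, with the next lowest at 1.83. Without this male the difference in index between tradeoff and predator males was -0.37 (exact permutation p = 0.00117, male 42 left out). Tradeoff male 39 was high for ENSGACG00000018848 (49.8 CPM, next highest 1.43) and for ENSGACG00000017096 (0.91 CPM, next highest 0.41).

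For 5 named genes the tradeoff against predator contrast differed between telencephalon and diencephalon with the male as a block (edgeR adjusted p = 0.0402 for each). The telencephalon library of male 42 was left out. The difference was 0.67 for ENSGACG00000013002 and 0.92 for ENSGACG00000017486, higher in the telencephalon. It was -0.34 for ENSGACG00000015377, -0.22 for ENSGACG00000008145 and -0.24 for ENSGACG00000012959. Without the block none of them passed. All 5 had been named for a small p in this test or in other fits of the same libraries, so their passing gives no separate support.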

How the results depend on the processing

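Size factors by relative log expression and no filter on low counts left every edgeR count at 0 where it was 0, and gave 182 and 140 genes in place of 183 for the fit of 15. With all libraries, both regions in 1 fit called 54 genes (8 higher, 46 lower), and male 42 was the highest of the 16 libraries in 46 of them; DESeq2 called 2. Without male 42, edgeR called 183 on the 15 tradeoff and predator libraries, 12 with both regions in 1 fit and 231 without control males 12 and 30 as well; DESeq2 called 27 and voom 2. In the fit of 15, DESeq2 called 747 (265 higher, 482 lower), voom 221 and edgeR with the index covariate 0; the cause was not tested. DESeq2 called 3 genes in the diencephalon, and 115 for the female effect with the trout minus that without it, without male 42. For the region difference the replicate block, a paired fit by male, gave 6 calls without the telencephalon library of male 42 and 0 with it. DESeq2 gave 4 and 3.

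Leaving out 1 library at a time gave 0 to 0 calls with all libraries, 0 to 1 without male 42 (1 without tradeoff male 13), and 20 to 256 in the fit of 15. The index difference ranged from -0.45 (without male 42) to 0.21 with all libraries, and from -0.48 to -0.37 without male 42. It was -0.61 with 200 genes a side (exact permutation p = 0.00373). Of 403 settings over the 17 named genes, 400 kept the direction; the exceptions were ENSGACG00000017096 under DESeq2 (0.14), voom (0.068) and without male 42 (0.15), and leaving out 1 library at a time gave it -7.13 to 0.15.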
